A study of Homo sapiens with 4 samples.

Results

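Death receptors are surface proteins of the TNF receptor superfamily that pass a death signal into the cell when their ligand binds. Expression of 10 genes of this pathway was read in RNA-seq of cells labelled as HepG2, a human line established from a liver tumor, before and after doxorubicin, a drug that damages DNA. The 10 genes were chosen by name from the 59050 gene symbols listed, and all 10 were found. They are the receptors FAS, TNFRSF1A, TNFRSF10A, TNFRSF10B, TNFRSF10C and TNFRSF10D, the ligand TNFSF10 (TRAIL), the adaptor FADD, the initiator caspase CASP8 and its inhibitory relative CFLAR (c-FLIP). There were 2 libraries of untreated cells (0 h) and 2 of cells given doxorubicin at 1 ug/ml for 24 h. The culture medium, with serum and antibiotics, and the selection of poly(A) RNA were common to both groups. The treated samples carry a treatment tag that names a miRNA in place of the drug, so the groups were taken from the titles (without and with p53), and the drug from the treatment protocol. Because the untreated cells are described as taken at 0 h, the drug and the 24 h in culture cannot be told apart.

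As background, binding of a ligand clusters these receptors, and a shared intracellular module called the death domain then recruits adaptors. FAS and the TRAIL receptors bind FADD, which brings in procaspase-8, while TNFRSF1A binds the adaptor TRADD first. CASP8 cleaves effector caspases directly, or cleaves BID and so engages the mitochondria, and CFLAR can take the place of CASP8 in the complex and block its activation. FAS and TNFRSF10B (DR5) are textbook targets of p53, the transcription factor that DNA damage activates, and the study treated the cells in order to raise p53. TNFRSF10C and TNFRSF10D bind TRAIL but lack a working death domain, and so act as decoys.

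The libraries held between 27572740 and 36272180 counts. Untreated replicate 2 stood apart, and the fold changes are therefore given with and without it. Of the 17479 genes that passed the filter on low counts, 44.4% were at least 2-fold apart between the untreated replicates and 4.5% between the doxorubicin replicates. The label HepG2 did not match the liver markers. Of 16 liver genes, 9 were below 1 CPM (each count divided by the total of its library and multiplied by 1000000) in all 4 libraries, ALB had 0 to 3 counts, and the summed level of the list was between 1.35 and 20.1 CPM. Its 2 untreated sums were 1.35 and 5.96 CPM, and the doxorubicin sums were 17.1 and 20.1 CPM. The list for simple epithelium, led by the keratin KRT8, summed to 5898 and 4751 CPM in untreated cells. With doxorubicin it summed to 3527 and 3025 CPM, so that both treated sums were below both untreated ones. The same held for KRT8 but not for KRT18, at 1793 and 783 CPM without the drug and 1086 and 937 CPM with it. EPCAM and CDH1 in the list were below 1 CPM. Blood markers summed to 20.6 CPM in untreated replicate 2, mostly from CD14, and to at most 1.43 CPM in the other 3 libraries, with PTPRC below 1 CPM throughout. Mesenchymal markers summed to 169.2 CPM in untreated replicate 2 and to 225.5, 283.4 and 284.0 CPM in the others. Within that list LUM was higher in both doxorubicin libraries than in both untreated ones, and COL3A1 was lower. Squamous and intestinal markers stayed at or below 12.3 and 2.67 CPM. What part these differences have in the results below was not tested. In bulk RNA, fewer cells of one kind and less RNA per cell cannot be told apart.

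The 250 bases upstream of the RefSeq start are shown for 3 genes that the values below turn on. FAS is a receptor whose level was higher in both doxorubicin libraries than in both untreated ones, CASP8 is the caspase it recruits, and TNFRSF1A is the receptor that was lowest in untreated replicate 2. Capitals mark matches on either strand to the GC box GGGCGG or to the loose AP-1 pattern TGANTCA, in which N is any base. The positions are chr10:88990548-88990797 on the plus strand for FAS, chr2:201260286-201260535 on the plus strand for CASP8 and chr12:6342077-6342326 on the minus strand for TNFRSF1A (RefSeq, GRCh38.p14).
FAS: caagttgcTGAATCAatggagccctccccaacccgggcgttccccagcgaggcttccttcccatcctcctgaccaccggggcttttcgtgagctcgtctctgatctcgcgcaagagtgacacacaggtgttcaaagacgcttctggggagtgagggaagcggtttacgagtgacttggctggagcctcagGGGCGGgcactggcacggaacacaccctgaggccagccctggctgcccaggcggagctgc
CASP8: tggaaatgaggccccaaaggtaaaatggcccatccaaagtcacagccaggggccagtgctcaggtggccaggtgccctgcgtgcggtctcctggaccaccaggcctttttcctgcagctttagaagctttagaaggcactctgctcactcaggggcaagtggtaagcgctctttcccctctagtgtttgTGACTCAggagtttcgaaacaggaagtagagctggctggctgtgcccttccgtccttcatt
TNFRSF1A: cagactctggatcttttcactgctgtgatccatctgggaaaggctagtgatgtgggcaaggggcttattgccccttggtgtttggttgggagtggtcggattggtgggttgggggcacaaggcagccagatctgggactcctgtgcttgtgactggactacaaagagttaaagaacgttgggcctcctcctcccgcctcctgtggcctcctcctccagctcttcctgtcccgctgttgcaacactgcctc

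The FAS window held 1 GC box and 1 AP-1 match (TGAATCA), the CASP8 window held 1 AP-1 match (TGACTCA), and the TNFRSF1A window held neither. Among 34943 windows of the same length, 42.5% held a GC box and 6.59% a match to the AP-1 pattern. None of the 3 held the TATA box TATAAA (10.8% of all windows), the kappaB motif (1.73%) or a single copy of the repeat that, in a pair, makes up a p53 site (5.58%). The FAS window was 62.8% G or C with 14 CpG, against 55.6% with 5 CpG for CASP8 and 56.8% with 4 CpG for TNFRSF1A, and the medians over all windows were 58.0% and 11 CpG. A match describes these letters only, and the absence of one says nothing of binding elsewhere in a gene.

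The 4 TRAIL receptor genes lie side by side on chromosome 8 (GRCh38), TNFRSF10B at 23020133 to 23069031, TNFRSF10C at 23102921 to 23117445, TNFRSF10D at 23135588 to 23164027 and TNFRSF10A at 23190452 to 23225102. CFLAR (201116154 to 201176687) and CASP8 (201233443 to 201361836) are both on chromosome 2. FAS is on chromosome 10 (88953813 to 89029605), TNFRSF1A on chromosome 12 (6328757 to 6342114), FADD on chromosome 11 (70203296 to 70207390) and TNFSF10 on chromosome 3 (172505508 to 172523475). The TRAIL receptors are paralogs, but 0 of the 50-base windows in the annotated transcripts of each were shared with another of the 4. Genes on the opposite strand overlap FAS (ACTA2), TNFRSF10A (TNFRSF10A-AS1 and TNFRSF10A-DT), TNFRSF10B (RHOBTB2), CASP8 (FLACC1) and CFLAR (CFLAR-AS1). The use of strand in counting is not given, so reads from these overlaps cannot be assigned with certainty.

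FAS, the receptor for FAS ligand, was at 7.64 CPM in untreated replicate 1, at 8.90 CPM in untreated replicate 2 and at 11.1 CPM in each doxorubicin replicate. Both treated libraries were above both untreated ones, also after scaling by TMM factors (which correct library sizes for composition). The FAS log2 fold change of doxorubicin over untreated was 0.27 (standard error 0.44, 95% interval -0.82 to 1.36), which did not pass the test (adjusted p-value 0.856, edgeR quasi-likelihood test, Benjamini-Hochberg). Leaving out untreated replicate 2 gave 0.39 (standard error 0.30, interval -0.20 to 0.98, edgeR adjusted p-value 0.503).

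A gene was called when its adjusted p-value was below 0.05 and its fold change at least 2-fold. By this rule 0 of the 9 tested members were called with all 4 libraries, as were 0.0% of the 17479 genes tested. At an unadjusted p-value below 0.05 the quasi-likelihood test had 0 of the 9 members, against 4.39% of all genes. Likewise 0 members were called by the exact (0.263% of all genes) and likelihood ratio (0.366%) tests of edgeR and with a replicate block (0.114%). DESeq2 called none either (0.515% of all genes), but gave TNFRSF10C no adjusted p-value. The decoy receptor TNFRSF10D had unadjusted p-values of 0.0475, 0.0423 and 0.0441 by these edgeR tests, in the order given, and of 0.0196 by DESeq2. The 9 log2 fold changes had a median of -0.04 and ran from -1.93 to 1.71, with 4 above 0 and 5 below, while the median of all genes tested was 0.01 and 50.8% of them were above 0. Without untreated replicate 2 the members had a median of 0.11, with 5 above 0, against a median of 0.05 and 54.3% of all genes. The member that was not tested is TNFSF10.

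**Figure D1:**
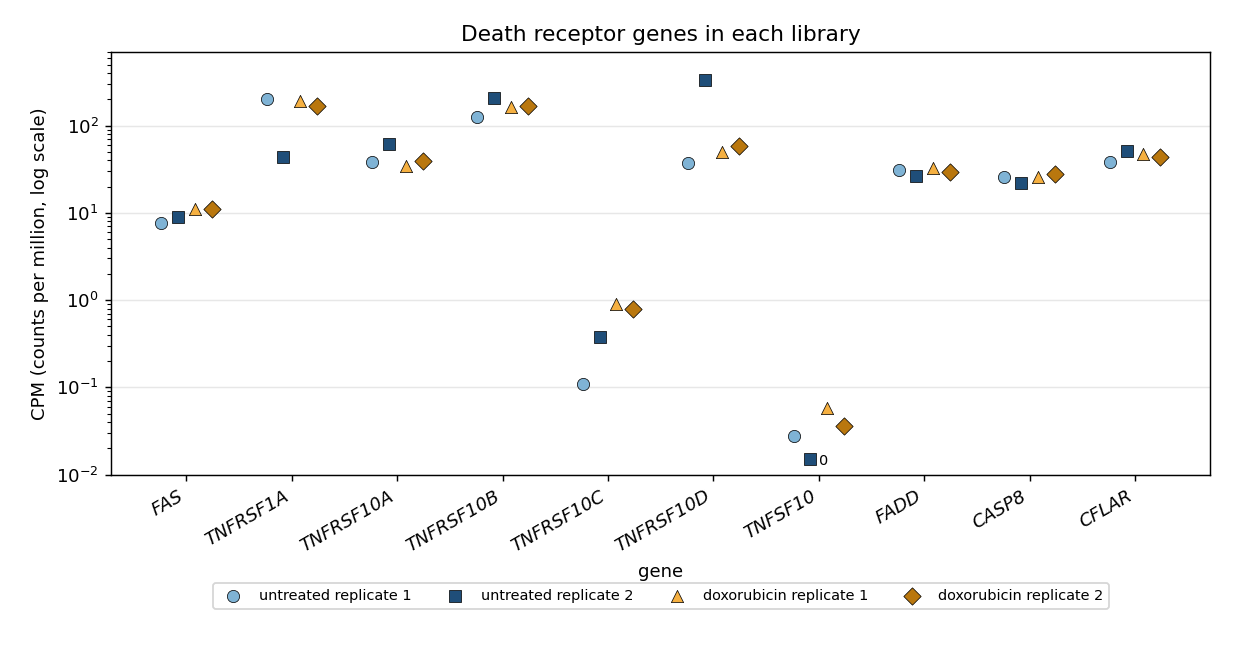
CPM of the 10 genes (horizontal axis) on a log scale, with 1 point for each of the 4 libraries and a labelled 0 for the library without a count of TNFSF10. Untreated replicate 2 lies far above the other libraries for TNFRSF10D (333.7 CPM) and far below them for TNFRSF1A (43.5 CPM), and the doxorubicin libraries lie close together.

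TNFRSF1A, the main receptor for TNF, was at 203 CPM in untreated replicate 1 and 43.5 CPM in untreated replicate 2, against 193 and 169 CPM with doxorubicin. The untreated replicates were thus 4.66-fold apart, and the untreated values enclosed the treated ones. With all 4 libraries the log2 fold change was 0.40 (standard error 0.70, edgeR adjusted p-value 0.870). When untreated replicate 2 was left out the sign turned, to -0.31 (standard error 0.22, interval -0.74 to 0.13, edgeR adjusted p-value 0.469). Without untreated replicate 1 it was 1.98, which passed the test (edgeR adjusted p-value 2.4e-13), in a fit that called 44.4% of all genes.

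Among the signalling TRAIL receptors, TNFRSF10B (DR5) had the more counts. Without the drug, replicate 1 gave 125 CPM and replicate 2 gave 209 CPM, and with it the values were 163 and 167 CPM. The treated values lay between the untreated ones. For TNFRSF10B the log2 fold change was -0.17 (standard error 0.36, interval -1.07 to 0.72) and, without untreated replicate 2, 0.25 (standard error 0.23, interval -0.20 to 0.70), neither of which passed the edgeR test (adjusted p-values 0.889 and 0.592).

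TNFRSF10A (DR4) was at 38.2 CPM in untreated replicate 1, 61.7 CPM in untreated replicate 2, 34.1 CPM in doxorubicin replicate 1 and 39.0 CPM in doxorubicin replicate 2. On this scale the groups overlapped, since doxorubicin replicate 2 exceeded untreated replicate 1, while after TMM scaling both treated libraries were below both untreated ones. The log2 fold change was -0.61 with all 4 libraries (standard error 0.39, edgeR adjusted p-value 0.773) and -0.21 without untreated replicate 2 (standard error 0.25, edgeR adjusted p-value 0.690). Without untreated replicate 1 it was -0.84 (edgeR adjusted p-value 0.00115), under the 2-fold limit.

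The decoy TNFRSF10D (DcR2) showed the widest gap between untreated replicates among the 9 tested members. The untreated libraries had 1370 and 9636 counts (37.8 and 333.7 CPM), and the doxorubicin libraries had 1732 and 1610 (50.5 and 58.4 CPM). Untreated replicate 2 was 8.84-fold above untreated replicate 1, a gap larger than that of 95.2% of all genes tested. With it the log2 fold change was -1.93 (standard error 0.94, interval -4.28 to 0.43, edgeR adjusted p-value 0.773), or -1.21 with a replicate block (edgeR adjusted p-value 0.801), and without it the sign turned, to 0.38 (standard error 0.25, interval -0.10 to 0.86, edgeR adjusted p-value 0.414). Without untreated replicate 1, which left replicate 2 as the only untreated library, the log2 fold change was -2.70.

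The decoy TNFRSF10C (DcR1), which is attached to the membrane by a lipid anchor, was close to the limit of detection. Only 4 and 11 counts fell on it in the untreated libraries (0.11 and 0.38 CPM), and 31 and 22 in the doxorubicin libraries (0.90 and 0.80 CPM). Both treated libraries were above both untreated ones, on CPM and after TMM scaling. With all 4 libraries, however, TNFRSF10C passed the filter on low counts only with the help of the doxorubicin libraries. The log2 fold change was 1.71 (standard error 0.75, interval -0.15 to 3.56, edgeR adjusted p-value 0.773). Without untreated replicate 2 it was 2.77 (standard error 0.86, interval 1.08 to 4.46), which passed the test (edgeR adjusted p-value 0.0284) and made TNFRSF10C the 1 member called of 9, in a fit that called 4.44% of 18356 genes. It was also the 1 member with an unadjusted p-value below 0.05 there, as 19.1% of all genes had. In that fit the gene passed the filter on low counts through the doxorubicin libraries alone, so that a tested gene of this kind had to be higher there. Only the 2 doxorubicin libraries give a spread within a group in that fit (1 residual degree of freedom). The test draws the spread of each gene toward the trend over all genes, and in that fit the pull was nearly complete. The interval thus reflects the trend and hardly the spread of this gene. For example, TNFRSF1A and CASP8 had standard errors of 0.22 and 0.26 there. Their log2 gaps between doxorubicin replicates were -0.28 and -0.01. The lone untreated library is assumed to vary as the doxorubicin libraries do.

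Of the 9 tested members, 3 (FAS, TNFRSF10C and CASP8) had a higher CPM in both doxorubicin libraries than in both untreated ones, against 30.3% of all genes tested, and 0 were lower in both, against 11.5%. After TMM scaling 2 members were higher (FAS and TNFRSF10C, against 21.3% of all genes) and 1 was lower (TNFRSF10A, against 17.9%). With 9 genes, these shares do not set the members apart from the background. TNFRSF10C passed the filter on low counts only with the help of the doxorubicin libraries, where it was high. Its place among the higher genes was thus favoured by the filter. The top value of the 4 libraries was that of untreated replicate 2 in 4 members (TNFRSF10A, TNFRSF10B, TNFRSF10D and CFLAR) and the bottom value in 3 (TNFRSF1A, CASP8 and FADD), where 36.6% and 45.0% of all genes had it highest and lowest. After TMM scaling it was highest in 4 (39.4% of all genes) and lowest in 2 (42.4%).

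Set against untreated replicate 1 alone, both doxorubicin libraries had the higher CPM in 6 members (FAS, TNFRSF10B, TNFRSF10C, TNFRSF10D, CASP8 and CFLAR, 53.1% of all genes) and the lower in 1 (TNFRSF1A, 24.7%). After TMM scaling the counts were 5 (40.0% of all genes) and 4 (37.4%). CASP8 changed sides between the scalings, as its values differed little.

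**Figure D2:**
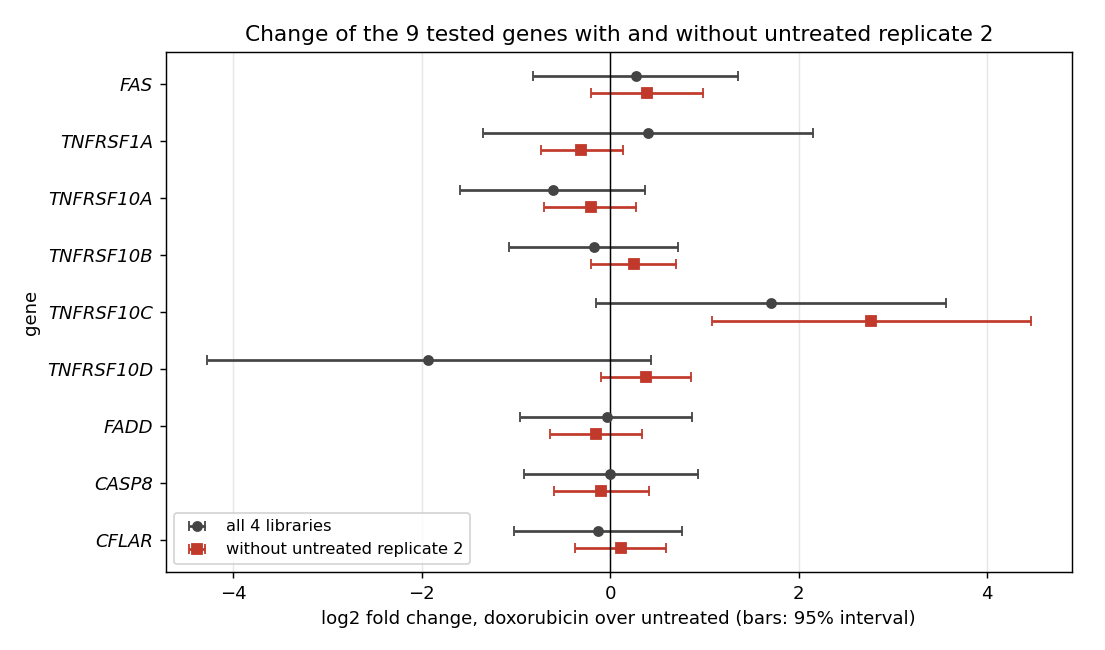
Log2 fold change of doxorubicin over untreated (horizontal axis) for the 9 tested genes, with circles for the fit on all 4 libraries, squares for the fit without untreated replicate 2, and bars for the 95% interval. TNFRSF10D moves from -1.93 to 0.38 and TNFRSF1A from 0.40 to -0.31 when the library is left out, and TNFRSF10C is the gene whose interval lies above 0 without it.

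Within a library, the ratio of 2 genes does not depend on how the library is scaled. TNFRSF10B had 3.28 counts for each count of TNFRSF10A in untreated replicate 1 and 3.39 in untreated replicate 2, against 4.78 and 4.29 with doxorubicin. The ratio was higher in both treated libraries, and the untreated replicates, which differed widely in other genes, were close to each other. The difference in mean log2 ratio was 0.44, against SDs between replicates of 0.03 in untreated and 0.11 in treated cells (n = 2 each), and the exact two-sided permutation test gave p = 0.333, the smallest value that 2 against 2 libraries allow. Leaving out untreated replicate 2, the difference was 0.47.

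As a share of the counts on the 4 TRAIL receptor genes, TNFRSF10A took 19.0% (exact binomial 95% interval 18.1 to 19.9) in untreated replicate 1 and 10.2% (9.76 to 10.7) in untreated replicate 2. With doxorubicin it took 13.7% (13.0 to 14.5) and 14.7% (13.9 to 15.5). For TNFRSF10B they were 62.2% and 34.5% without the drug and 65.6% and 63.0% with it. For TNFRSF10D the shares were 18.7% and 55.2% without the drug and 20.3% and 22.0% with it. TNFRSF10C was under 0.4% throughout, at 0.055% (0.015 to 0.140) and 0.063% (0.032 to 0.113) against 0.364% (0.247 to 0.516) and 0.301% (0.189 to 0.455). These intervals cover counting error only, and the shares are of counts, not of molecules, since the transcripts differ in length.

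**Figure D3:**
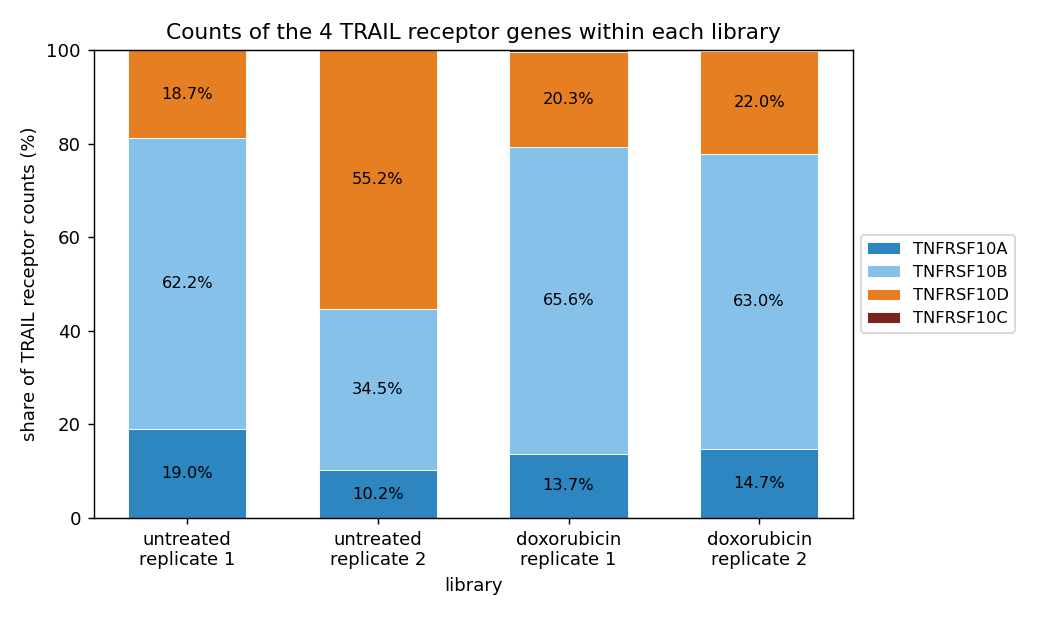
Share of the counts on the 4 TRAIL receptor genes (vertical axis, percent) that each gene took in each library, as stacked bars. TNFRSF10D takes 55.2% in untreated replicate 2 and between 18.7% and 22.0% in the other 3 libraries, and TNFRSF10C is too small to see.

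Both decoy receptors combined had 0.232 counts for each count of the signalling receptors in untreated replicate 1 and 1.24 in untreated replicate 2. In the doxorubicin replicates the ratio was 0.261 and 0.287. The treated values lay between the untreated ones, and the difference in mean log2 ratio was -0.97 with all 4 libraries (exact permutation p = 1.0) and 0.24 without untreated replicate 2.

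Levels of different receptors were compared per kilobase of the reference transcript (MANE Select). TNFRSF1A had the highest level in 3 libraries, at 93.4 CPM per kilobase in untreated replicate 1 and 89.0 and 77.9 in the doxorubicin replicates, but not in untreated replicate 2, where it was at 20.0 CPM per kilobase, below TNFRSF10D at 94.4, TNFRSF10B at 52.2 and TNFRSF10A at 22.9. TNFRSF10B followed in those 3 libraries at 31.4, 40.7 and 41.8 CPM per kilobase. TNFRSF10A (14.2, 12.7 and 14.5) and TNFRSF10D (10.7, 14.3 and 16.5) were next and changed places between libraries, so their order is not settled beyond the spread. FAS was at 2.07 to 3.01 CPM per kilobase and TNFRSF10C at 0.08 to 0.65 over all 4 libraries. The order of FAS and TNFRSF10C at the low end was the same in each library.

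The ligand TNFSF10 was at or under the floor of 3 counts in every library, with 1 and 0 counts without the drug and 2 and 1 with it. A floor of 3 counts equals a CPM of 0.0827 to 0.109, so a lower level was not detectable at this depth, and no fold change is given. FASLG, the ligand of FAS, had at most 2 counts, and TNF, LTA and LTB were listed at 0 in all 4 libraries.

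Downstream of the receptors, FADD was at 31.2 and 26.2 CPM without the drug and at 32.5 and 29.7 CPM with it. CASP8 was at 25.9 and 22.1 CPM against 26.1 and 27.6 CPM, with both treated values highest by a narrow margin that disappeared after TMM scaling. CFLAR was at 38.1 and 51.4 CPM against 46.8 and 44.2 CPM. In FADD and CFLAR the groups overlapped.

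The log2 fold changes of these 3 genes were the smallest in size among the members, at -0.04 for FADD (standard error 0.37), 0.00 for CASP8 (standard error 0.37) and -0.13 for CFLAR (standard error 0.36). The 95% intervals were -0.96 to 0.87, -0.92 to 0.93 and -1.02 to 0.76, so that a change of close to 2-fold either way lay within them. Without untreated replicate 2 the values were -0.15, -0.10 and 0.11, and the intervals were -0.64 to 0.34, -0.60 to 0.41 and -0.37 to 0.59. With library size alone in place of TMM, which shifted the median of all genes by 0.16, CFLAR and FADD had 0.02 and 0.11, and with RLE factors CASP8 had -0.05.

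CFLAR had 1.47 counts for each count of CASP8 in untreated replicate 1 and 2.33 in untreated replicate 2, against 1.79 and 1.60 with doxorubicin. The treated values again lay between the untreated ones, and the difference in mean log2 ratio was -0.13 (exact permutation p = 1.0), or 0.21 without untreated replicate 2.

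The rest of the pathway was described with 48 genes listed by role, of which 39 passed the filter. With all 4 libraries 0 of the 39 were called and 1, TNFRSF25, had an unadjusted p-value below 0.05 (edgeR, 4.39% of all genes). Of the 39, 21 had a log2 fold change above 0 and 18 below, with a median of 0.04. Without untreated replicate 2, 3 of 40 were called, all upward, where 3.88% of all genes were called upward. They were TNFRSF25, TRAF1 and CYLD.

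TNFRSF25 (DR3), another receptor with a death domain, had 13 counts in each untreated library and 46 and 48 in the treated ones, or 0.36 and 0.45 CPM against 1.34 and 1.74 CPM. For TNFRSF25 the log2 fold change was 1.77 with all 4 libraries (standard error 0.61, unadjusted p-value 0.0298, edgeR adjusted p-value 0.773) and 1.93 without untreated replicate 2 (standard error 0.61, edgeR adjusted p-value 0.0323). Both treated libraries were above both untreated ones, and the untreated replicates were close.

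TRAF1, an adaptor of TNF receptors, was at 0.50 and 1.18 CPM against 2.19 and 2.36 CPM with doxorubicin. For TRAF1 the log2 fold change was 1.32 (standard error 0.64, edgeR adjusted p-value 0.773), or 2.04 without untreated replicate 2 (edgeR adjusted p-value 0.00712). CYLD, a deubiquitinase that acts on TNF receptor complexes, was named after its values were seen. It was at 27.7 and 136 CPM against 51.2 and 84.6 CPM with doxorubicin. Its log2 fold change was -0.43 with all 4 libraries and 1.14 without untreated replicate 2 (edgeR adjusted p-value 0.000561), and its treated values lay between the untreated ones.

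Among the ligands with counts, TNFSF15 (TL1A), the ligand of TNFRSF25, was at 5.29 and 5.92 CPM in untreated and 6.09 and 6.71 in treated cells, with a log2 fold change of 0.03 (standard error 0.47). TNFSF12 (TWEAK) was at 5.49 and 1.35 against 7.17 and 7.04 CPM, and its receptor TNFRSF12A had the highest CPM of the other receptors, at 318 and 253 against 441 and 416. Both genes were higher in both treated libraries, with log2 fold changes of 0.87 and 0.43 (standard errors 0.72 and 0.29), and neither passed the test. The soluble decoy TNFRSF6B had at most 5 counts in a library.

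The 10 other regulators of death signalling on the list, which include inhibitors such as XIAP and proteins that can favour death such as DEDD, DEDD2 and CYLD, had a median log2 fold change of 0.43, with 7 above 0, and of 0.49 with 8 above 0 without untreated replicate 2. None of the 10 was called with all 4 libraries, where 0.0% of all genes were. TNFAIP3 (A20), a ubiquitin-editing inhibitor of TNF signalling, was at 22.5 and 20.1 CPM against 39.5 and 40.4 CPM with doxorubicin. Its log2 fold change was 0.75 (standard error 0.36, edgeR adjusted p-value 0.773) and 0.68 without untreated replicate 2 (standard error 0.26, edgeR adjusted p-value 0.0911). PEA15, a death effector domain protein, was at 148 and 215 CPM against 247 and 286 CPM. Its log2 fold change was 0.40 (standard error 0.32), or 0.70 without untreated replicate 2 (edgeR adjusted p-value 0.0390), which is under the 2-fold limit.

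Of the 7 tested adaptors and kinases 4 had a log2 fold change above 0, and FAF1, a FAS-associated factor, had the highest mean CPM. FAF1 was at 83.7 CPM in untreated replicate 1, 8.59 CPM in untreated replicate 2, and 75.4 and 76.6 CPM with doxorubicin, and its log2 fold change was 0.56 with all 4 libraries and -0.29 without untreated replicate 2. The linear ubiquitin ligase genes RBCK1 and RNF31 had log2 fold changes of 0.27 and -1.05 (standard errors 0.33 and 0.92), and of 0.50 and 0.49 without untreated replicate 2.

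Among the 6 other caspases 2 had a log2 fold change above 0 and 4 below. Without untreated replicate 2 the values ran from -0.80 to 0.57, again with 2 above 0 and 4 below. The lowest was that of CASP9, which was named after its values were seen. CASP9 was at 66.1 and 21.0 CPM against 43.9 and 40.1 CPM with doxorubicin, so its treated values lay between the untreated ones. CASP2 had between 40.4 and 45.2 CPM in all 4 libraries. The 5 genes that link the pathway to the mitochondria (BID, DIABLO, CYCS, APAF1 and HTRA2) all had values below 0, with a median log2 fold change of -0.58, and of -0.25 without untreated replicate 2. CYCS, cytochrome c, was at 231 and 520 CPM against 184 and 207 CPM with doxorubicin. The CYCS log2 fold change was -1.10 (standard error 0.44, unadjusted p-value 0.0508, edgeR adjusted p-value 0.773), or -0.39 without untreated replicate 2. None of the 5 passed the test, and the -0.09 of BID is smaller than the 0.16 by which library size alone shifted the median of all genes.

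**Figure D4:**
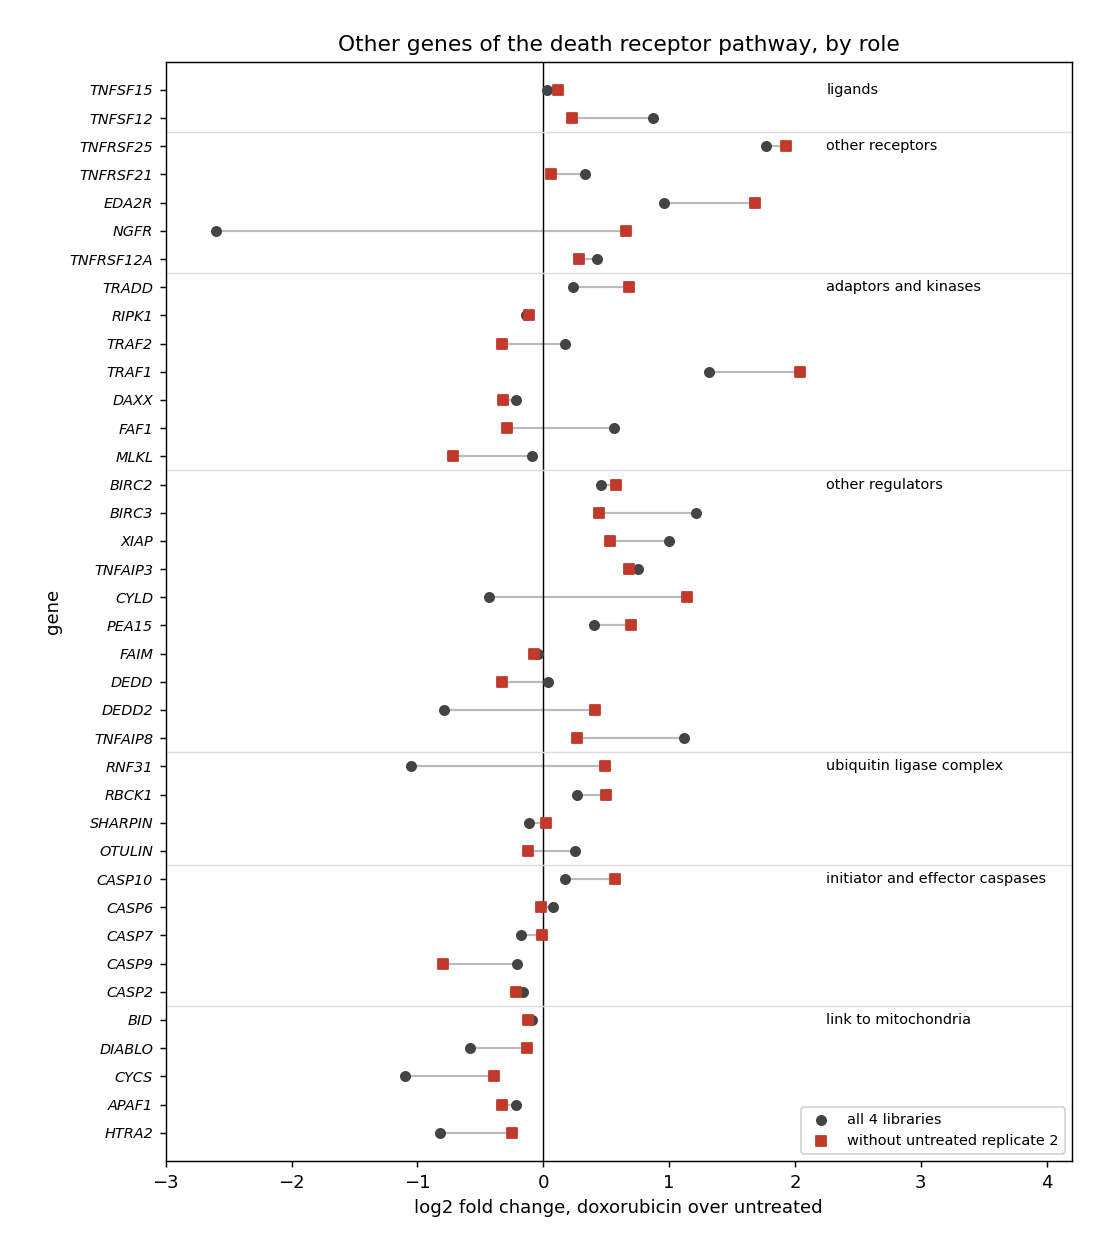
Log2 fold change of doxorubicin over untreated (horizontal axis) for other pathway genes tested, grouped by role, with circles for all 4 libraries, squares for the fit without untreated replicate 2 and a line joining both. The circle and the square of TNFRSF25 lie close together, at 1.77 and 1.93, whereas NGFR, CYLD, DEDD2 and RNF31 are among the genes that cross 0 when the library is left out.

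As a check of the treatment, the p53 targets CDKN1A and MDM2 were read. CDKN1A was at 380 and 866 CPM without the drug and at 1003 and 880 CPM with it. Untreated replicate 2 was thus close to the treated level of CDKN1A. MDM2 was at 43.0 and 32.1 CPM against 54.8 and 56.6 CPM. The log2 fold changes of CDKN1A and MDM2 were 0.44 and 0.41 with all 4 libraries, and 1.16 and 0.23 without untreated replicate 2. CDKN1A passed the test in the second fit (edgeR adjusted p-value 3.42e-05), and MDM2 passed it in neither.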

How the data were processed

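RNA-seq libraries were grouped by their titles. Reads were filtered with FastQC and Cutadapt, mapped with HISAT2 (hg38, from the submitters' processing notes) and counted per gene by the authors, who deposited raw counts without normalization. The methods name HTSeq, and the file headers name GENCODE release 31. Tool versions and the use of strand are not given in the sources used here. The labels do not say whether replicates came from separate cultures, although the series text calls them biological, so p-values may measure a technical spread.

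CPM was the count over the library total. Differential expression used R 4.3.3 and edgeR 4.0.16 (filterByExpr, TMM, glmQLFit, glmQLFTest, prior count 0.125), with p-values adjusted over all genes tested. Standard errors are the fold change over the root of the F statistic. DESeq2 1.42.0 was an alternative. Ratios were tested with SciPy 1.17.1. Positions come from GENCODE release 44 and sequences from RefSeq; promoter windows were found for 6 members, and those on chromosome 8 were not used here. The fits were tested on simulated data.

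The members and lists were chosen with earlier results of these data known. Named are all members and, in each role, the gene with the highest mean CPM and that with the smallest p-value, except 1 gene that is not reported here. The legacy setting of glmQLFit was added after seeing the data. Deviations from the group mean correlated at 0.0219 between libraries with the same number, which does not pair them.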

Additional observations from a re-analysis of the deposited data

How the results depend on the processing

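With 2 libraries in a group, and 1 of them far from the other 3, the direction of 6 of the 9 tested members depended on a setting. The quasi-likelihood test called 0 genes (768 at an unadjusted p-value below 0.05), and so did RLE factors, library size alone, no filter, a stricter filter (1 CPM or more in 2 or more libraries) and the legacy fit. The exact test called 46 genes, the likelihood ratio test 64, DESeq2 90 and the replicate block 20, and none of these called a member, although DESeq2 gave TNFRSF10C no adjusted p-value. With the replicate block TNFRSF10D moved from -1.93 to -1.21 and TNFRSF1A from 0.40 to 0.78. The cause was not tested. Same-numbered libraries share only a number. With each library left out in turn, between 0 and 8697 genes and between 0 and 2 members were called. The 815 genes without untreated replicate 2 included TNFRSF10C, and the 8697 without untreated replicate 1 included TNFRSF10D and TNFRSF1A. The median log2 fold change of the members was between -0.12 and 0.16 in these fits, and 0.11 with library size alone. Under the stricter filter, where TNFRSF10C was not tested, 2 members were above 0.

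Reversed signs were found for CASP8 with DESeq2 (-0.05), RLE factors (-0.05) and the stricter filter (-0.02), for CFLAR with library size alone (0.02), and for FADD with library size alone (0.11) and no filter (0.01). With each library left out in turn, log2 fold changes ran from -0.42 to 0.25 for TNFRSF10B, -2.70 to 0.38 for TNFRSF10D, -0.31 to 1.98 for TNFRSF1A, -0.10 to 0.20 for CASP8, -0.26 to 0.11 for CFLAR and -0.15 to 0.16 for FADD. FAS, TNFRSF10A and TNFRSF10C kept their direction under every alternative in which they were tested. The difference in log2 ratio of TNFRSF10B to TNFRSF10A stayed above 0 with each library left out, at 0.36 to 0.52. TNFSF10 and TNFRSF10C are limited by depth, with at most 2 and 31 counts in a library.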
